A study of Rattus norvegicus with 6 samples.

Results

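Regions that carried a called peak of all 3 histone lactylation marks in lactate-treated rat tenocytes and no called peak of any mark in untreated cells numbered 374 of 176698, or 0.212% (exact binomial 95% interval 0.191 to 0.234) of all regions. They were chosen by the presence or absence of peak calls, pooling the peaks of 6 deposited lists, merging peaks that overlapped by at least 1 bp and keeping merged regions with a peak in the H3K9la, H4K8la and H4K16la lactate lists and in none of the 3 control lists. The choice therefore used the peak calls of all 6 libraries. The peak values of these regions are given as a description, and no test was made on them.

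Lactylation is the attachment of a lactyl group, derived from lactate, to the side chain of a lysine. On histones it has been described as a mark of active promoters and enhancers that follows the supply of lactate in the cell. H3K9la marks a lysine in the tail of histone H3, and H4K8la and H4K16la mark lysines in the tail of histone H4. Tenocytes are the fibroblast-like cells that make and maintain the collagen matrix of tendon, a tissue with a sparse blood supply.

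Cultured wild-type tenocytes from rat tendon were either given 20 mM lactate or left untreated (control), and CUT&Tag was run with 1 library per mark and condition. The method tethers a transposase to chromatin through an antibody bound to the mark, and the DNA fragments cut out there are sequenced. With 6 libraries in 6 groups of 1, a difference between lactate and control cannot be told apart from a difference between libraries, and all intervals cover counting error only. The labels do not name the animals, the sex, the passage or the length of the treatment, and a peak list has no defining markers of tenocytes to check. Positions are in build rn7, counted from 1. Genome sequence and annotation of rn7 were not used here, and the regions carry no gene names, sequences or base composition.

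The lactate lists held 46597 peaks for H3K9la, 42787 for H4K8la and 62563 for H4K16la, and the control lists 61850, 61347 and 40681 for the same marks. Since the lists give no read totals, depth was taken from the mean fragment coverage of the genome that the peak caller's own values imply, here called the genome-wide background. It was 1.88 fragments per base with lactate and 2.17 in control for H3K9la, 1.55 with lactate and 1.32 in control for H4K8la, and 2.84 with lactate and 1.53 in control for H4K16la. The H4K16la lactate library was thus the deepest of the 6, at 1.86 times its control.

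The strongest of the 374 regions, ranked by the mean −log10 q of their 3 lactate peaks, was chr9:98653121-98653969. The q is the peak caller's p adjusted for multiple testing, so a higher −log10 q means a stronger peak call. The region's H3K9la, H4K8la and H4K16la peaks had −log10 q of 9.25, 13.3 and 13.0, and its fold over local background, as the authors' peak caller gave it, was 6.65, 8.12 and 6.61 in the same order. The 3 summits lay within 13 bp of each other, and the 3 peaks shared 554 bp. All 3 marks thus peaked at nearly one position there. A control peak of H3K9la with a −log10 q of 2.05 lay 3681 bp away.

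The second region, chr15:96255082-96255592, stood alone in its surroundings. No other peak of any of the 6 libraries lay within 10 kb of its centre, and the nearest control peak was 15178 bp away. Its −log10 q was 11.2 for H3K9la, 7.12 for H4K8la and 15.2 for H4K16la, with 21, 15 and 29 fragments stacked over the summit (the summit pileup). Its local background matched the genome-wide one in all 3 lactate libraries (1.00, 1.00 and 1.01 times). The summits spanned 42 bp.

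The third region, chr1:80159196-80160208, held the highest −log10 q of any lactate peak among the 374, 17.2 for H4K16la. Its H3K9la peak reached 10.3 and its H4K8la peak 4.02, and the summits were up to 256 bp apart. It lay in a stretch of raised coverage, with a local background 2.37, 2.65 and 2.55 times the genome-wide one for H3K9la, H4K8la and H4K16la.

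The fourth region, chr3:949129-949749, had a close neighbour of the same kind. Its −log10 q was 5.64 for H3K9la, 7.46 for H4K8la and 15.7 for H4K16la. Across a gap of 838 bp lay chr3:947634-948290, also called for all 3 marks with lactate only, with −log10 q of 4.80, 2.17 and 3.39 for the same marks. This was the closest pair among the 374 regions. The nearest control peak was 11704 bp from the stronger region and 10209 bp from the weaker one.

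The sixth region, chr9:2912057-2912663, showed the opposite setting. It lay beside a broad block called in all 6 libraries, whose H3K9la, H4K8la and H4K16la peaks had −log10 q of 40.4, 36.5 and 52.7 with lactate and 29.6, 13.4 and 25.0 in control. The gap to the nearest control peak was 987 bp. Within the region itself the values were 5.65, 4.43 and 12.002 with lactate. Its local background was 4.27, 6.10 and 3.60 times the genome-wide one, so it lay in a stretch of high coverage.

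**Figure D1:**
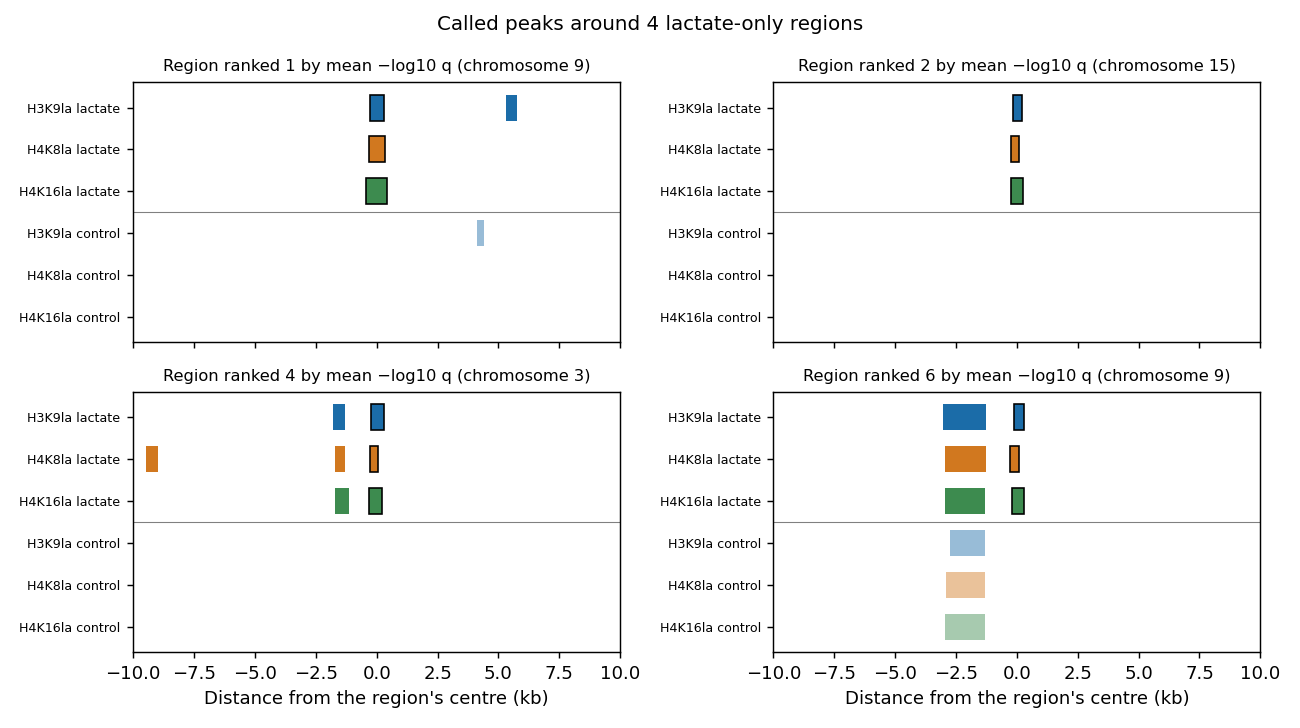
Called peaks within 10 kb of the centre of 4 of the 374 regions, with 1 row per library, lactate rows above control rows. The horizontal axis is the distance from the region's centre in kb, bars span the called peaks, and black outlines mark the 3 peaks that form the region. The second-ranked region has no other peak, the fourth-ranked one has its neighbour 838 bp away, and the sixth-ranked one lies 987 bp from a block called in all 6 libraries.

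The other regions among the 12 of highest mean −log10 q lay between 6.47 and 8.26 in that mean. They were chr13:31213321-31214460 (8.26), chr4:116087185-116087936 (7.30), chr17:85765761-85766772 (7.28), chr6:22770551-22771371 (6.63), chr7:41131645-41132404 (6.54), chr2:49177881-49178957 (6.52) and chr4:105284043-105284891 (6.47). No single mark led in all of them. H4K16la reached 10.3 on chromosome 13 and 14.2 on chromosome 17, where H3K9la had 3.89 and H4K8la 3.78. H4K8la led on chromosome 7 with 8.92, against 6.80 for H3K9la and 3.89 for H4K16la. H3K9la led in the first chromosome 4 region with 9.32, against 5.90 for H4K8la and 6.67 for H4K16la.

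Most of the 374 regions were far weaker than these. The median of the mean −log10 q was 3.59, with quartiles of 3.11 and 4.28, a lowest value of 1.99 and a highest of 11.9. All 3 peaks reached a −log10 q of 3 in 102 regions, of 5 in 10 regions and of 10 in 0 regions. At least 1 peak reached 5 in 167 regions and 10 in 12 regions. The weakest region by its mean was chr13:104530024-104530460, where H3K9la had a −log10 q of 2.40, H4K8la 1.58 and H4K16la 2.00. The single peak closest to the authors' limit of 1.30 was the H3K9la peak of chr17:68812284-68813060, at 1.35.

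Set against their own lists, the lactate peaks in these regions ranked near the middle, with H3K9la at a median of 47.4% from the top, H4K8la at 50.8% and H4K16la at 39.3%. The median −log10 q of the H3K9la peaks was 3.34, against 3.25 over the whole H3K9la lactate list. For H4K8la it was 3.09, against 3.13 over the list, and for H4K16la 3.88, against 3.40. All 3 peaks fell in the stronger 50% of their lists in 67 regions and in the weaker 50% in 41 regions. In 2 regions all 3 were in the strongest 10%.

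The marks differed in which measure they led. H4K16la had the highest −log10 q of the 3 in 178 regions, H3K9la in 113 and H4K8la in 83. Its median −log10 q was also the highest over the whole lactate lists, at 3.40 against 3.25 for H3K9la and 3.13 for H4K8la. By fold over local background the order was turned round, with H4K8la highest in 153 regions, H3K9la in 141 and H4K16la in 80. The median fold was 3.82 for H3K9la, 3.93 for H4K8la and 3.58 for H4K16la. Over the whole lactate lists it was 3.69, 3.88 and 3.39, so the marks had the same order there. Median summit pileups were 14, 12 and 18 fragments, which is 7.45, 7.75 and 6.33 times the genome-wide background of each library. The H4K16la lactate library was also the deepest of the 3. The part of depth in its lead in −log10 q and in its lower fold was not tested.

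**Figure D2:**
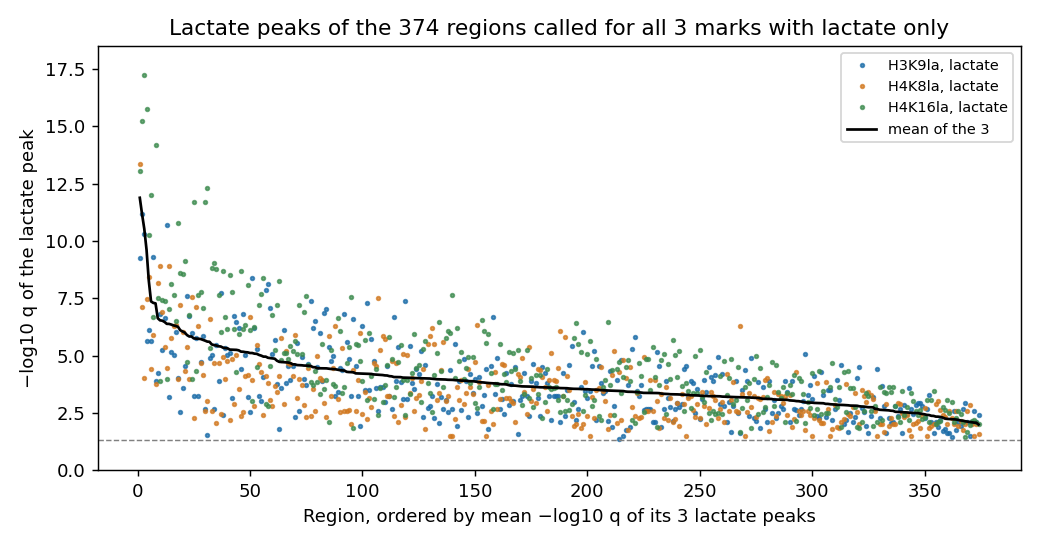
−log10 q of the H3K9la, H4K8la and H4K16la lactate peaks (points) in each of the 374 regions, ordered along the horizontal axis by their mean (black line). The dashed line is the authors' limit of 1.30. The mean falls steeply over the first 12 regions and has quartiles of 3.11 and 4.28.

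The strengths of the marks were at most weakly correlated over the 374 regions. Across the 374 regions Spearman's rho between −log10 q values was 0.09 for H3K9la and H4K8la, 0.13 for H3K9la and H4K16la, and 0.19 for the H4 marks. Over all 10997 regions with the 3 lactate peaks it was 0.40, 0.43 and 0.47. These correlations are across regions of the same 3 libraries, which share coverage and base composition, and the narrow range of values among the 374 regions was not corrected for. Examples of an unequal pattern were chr15:498118-498678, with 10.7 for H3K9la, 4.47 for H4K8la and 3.97 for H4K16la, and chr19:22866111-22866718, with 2.59, 7.50 and 2.41. In chr4:130972795-130973405 the H4K8la peak had 6.27, while H3K9la had 1.62 and H4K16la 1.65. In chr1:227010764-227011487 H3K9la had 7.40, H4K8la 2.32 and H4K16la 2.40. The 3 peaks of that region shared 6 bp, and a control peak of H4K8la lay 141 bp away.

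The median width of the 374 regions was 789.5 bp, with quartiles of 625 and 954 bp, and together they covered 304.7 kb. It was 627 bp for regions with 2 lactate marks and no control peak, 399 bp for those with 1, and 486 bp over all regions, and joining more peaks widens a region by construction. The median width of the peaks inside them was 447 bp for H3K9la, 455 bp for H4K8la and 496.5 bp for H4K16la. Of the 374 regions, 370 held exactly 1 peak per mark. The widest, chrX:4203614-4205645, spanned 2032 bp, all of it covered by its H4K16la peak, while its H3K9la and H4K8la peaks were 583 and 402 bp wide and did not overlap each other. The narrowest, chr7:32515158-32515514, spanned 357 bp, and its 3 peaks shared 283 bp. In chrX:100476840-100477212, 373 bp wide, the 3 summits lay within 25 bp.

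The 3 marks coincided in most regions, though seldom at one summit. In 329 regions the 3 lactate peaks had at least 1 base in common, with a median shared stretch of 257 bp. In the other 45 they were joined only through a bridging peak, which was H4K16la in 18, H3K9la in 16 and H4K8la in 11. Regions are formed by joining overlapping peaks, so a shared base is favoured by construction. Its share was 88.0% in the 374, and 89.0%, 86.8% and 93.8% with 3 lactate marks and 1, 2 or 3 control marks. It was 85.6% for the control peaks of regions with all 3 control peaks and no lactate peak. For these other sets the median shared stretch was 290, 313, 418 and 255 bp in the same order. In the 374 regions the median distance between summits was 186 bp for H3K9la and H4K8la. It was 168 bp for H3K9la and H4K16la, and 158 bp for H4K8la and H4K16la. All 3 summits lay within 100 bp in 57 regions, or 15.2% (11.8 to 19.3). In regions called in all 6 libraries that share was 22.0% (21.1 to 22.98). With 3 lactate marks and 1 or 2 control marks it was 16.4% (14.2 to 18.9) and 17.1% (15.6 to 18.6). Both of these shares lie inside the interval of the 374. In regions with all 3 control peaks and no lactate peak it was 11.5% (9.42 to 13.8). The median span of the 3 lactate summits was 290.5 bp in the 374 regions and 222 bp in those of all 6 libraries. It was 281 and 274 bp with 1 and 2 control marks.

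Among regions with 3 lactate peaks, the lactate peaks were stronger the more control marks were also present. Over regions with 0, 1, 2 and 3 control marks, the median H3K9la −log10 q with lactate was 3.34, 3.85, 4.18 and 5.42. For H4K8la it was 3.09, 3.27, 3.93 and 5.85, and for H4K16la 3.88, 4.22, 4.55 and 6.74. The 374 regions had the lowest median of the 4 sets for every mark, above that of the 4339 regions with 2 lactate marks and no control peak, where the medians were 3.02, 2.76 and 3.27. Over the sets with 0, 1, 2 and 3 control marks, the median region width was 789.5, 908, 1080 and 1233 bp. A region is the union of its peaks, so each added control peak can only widen it.

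Among the 10997 regions with all 3 lactate peaks, the 374 made up 3.4%. The mirror set, called for all 3 marks in control and in none of the lactate libraries, held 854 regions, 0.483% of all regions and 5.9% of the 14479 with all 3 control peaks. The ratio of the lactate-only to the control-only number was 0.438 (counting interval 0.387 to 0.495). It was lower when weak peaks were left out of all 6 lists. With −log10 q of at least 3 there were 196 lactate-only regions (0.197% of the regions formed at that threshold) and 701 control-only ones (0.703%). At 5 there were 53 (0.134%) and 460 (1.16%), and at 10 there were 8 (0.0945%) and 97 (1.15%).

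**Figure D3:**
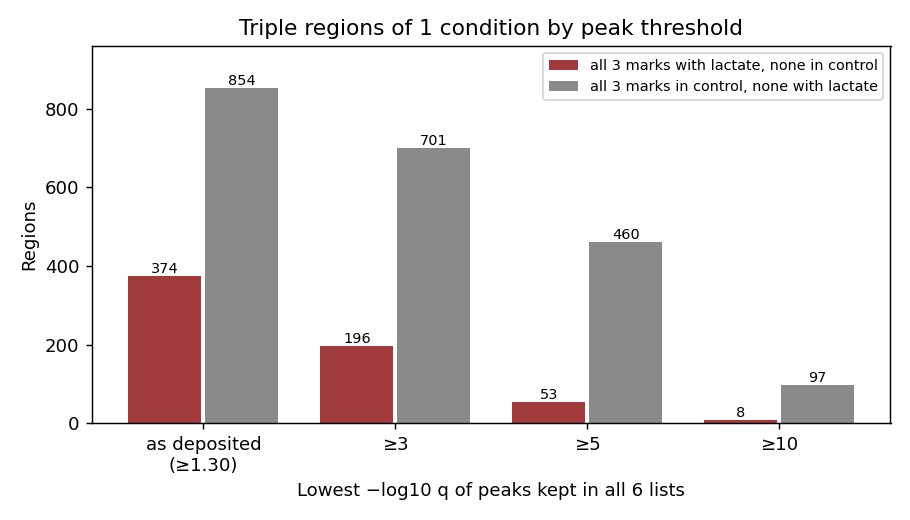
Number of regions with all 3 marks in one condition and none in the other, against the lowest −log10 q kept in all 6 lists. Red bars on the left of each pair are lactate-only regions and grey bars control-only regions. Lactate-only regions are fewer at every threshold, from 374 and 854 as deposited to 8 and 97 at 10.

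The 8 lactate-only regions at a −log10 q of at least 10 were not among the 374. Each of them carried a control peak of 2 or 3 marks that fell short of 10. The strongest was chr14:46237356-46237777, with 17.4 for H3K9la, 14.9 for H4K8la and 15.4 for H4K16la with lactate, and with 5.76 for H4K8la and 8.22 for H4K16la in control. The next, chr1:54119320-54121396, had 13.0, 12.2 and 20.0 with lactate and 3.88 for H3K9la and 9.74 for H4K8la in control. Near the first base of chromosome X, chrX:8630-9254 had 17.5, 11.3 and 12.4 with lactate and 8.53, 9.96 and 9.65 in control. Across the 8 regions the highest control peak lay between 8.22 and 9.96. Of the 196 regions at a threshold of 3, 102 were among the 374 and 94 had a weaker control peak, and of the 53 at 5 the numbers were 10 and 43.

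Just outside the rule were 980 regions with all 3 lactate peaks and a control peak of 1 mark. That control peak was of H3K9la in 465, of H4K8la in 324 and of H4K16la in 191, the shortest list. It had a −log10 q under 2 in 22, 12 and 12 of them. The region of highest mean lactate value among those with 1 such weak control peak was chr1:53508444-53509255, with 16.3 for H3K9la, 3.77 for H4K8la and 7.66 for H4K16la with lactate and 1.91 for H3K9la in control. Its mean of 9.22 lay between those of the fourth and the fifth of the 374 (9.61 and 8.26). On the other side were 4339 regions with 2 lactate marks and no control peak, of which 2115 lacked H4K8la, 1449 H3K9la and 775 H4K16la. The strongest of these, chr6:40657288-40657744, had 14.9 for H3K9la and 10.1 for H4K16la.

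The lactate peaks were also scaled to the background of the control library of their mark. The control library was the shallower one for H4K8la and H4K16la and the deeper one for H3K9la, where scaling could only raise the values and sets no limit. All 374 H4K8la peaks stayed at or above the lowest −log10 p called in control, 3.12. For H4K16la 301 of the 374 did and 73 did not, with a control limit of 3.33. The median −log10 p of the H4K16la peaks was 6.77 as deposited and 4.27 at control depth. All 12 top-ranked regions stayed above the limit for both H4 marks. These are the values by which the regions were chosen and the scaling leaves out counting noise, so it does not say how many peaks would be called in a real library of that depth. With all 6 libraries scaled to the lowest background and a −log10 p of at least 4, 162 lactate-only and 1054 control-only regions were left, against 364 and 809 at the same limit without scaling.

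Control peaks were common in the surroundings of the 374 regions. The nearest lay at a median distance of 6174 bp from the region's edge, within 1 kb in 44 regions (11.8%, 8.68 to 15.5), within 5 kb in 155 (41.4%, 36.4 to 46.6) and within 10 kb in 264 (70.6%, 65.7 to 75.2). It belonged to H4K8la in 149 regions, H3K9la in 136 and H4K16la in 89. These distances were close to those of the regions with 2 lactate marks and no control peak (median 6132 bp, 41.5% within 5 kb) and of the 58434 with 1 lactate mark and no control peak (6479.5 bp, 40.6%). Within 10 kb the shares of these 2 sets were 69.1% and 65.5% (65.1 to 65.9 for the last). The share of the set with 1 lactate mark lay just under the interval of the 374. Among regions with 3 lactate marks and 1, 2 or 3 control marks, a further control peak lay outside the region within 5 kb in 43.2%, 40.1% and 30.2% (29.2 to 31.3 for the last). The lower share of the regions called in all 6 libraries was not seen at 10 kb, where it was 70.7% against 70.6% for the 374.

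The smallest gap was 41 bp, between chrX:15020440-15021139 and a control peak of H3K9la. Gaps of 58 and 64 bp followed at chr17:48261854-48262701 and chr19:37633586-37634507. All 3 of these regions were weak, with a mean −log10 q of 2.47, 2.44 and 2.21. The most remote region, chr15:17943013-17943467, lay 172395 bp from any control peak, where H3K9la had a −log10 q of 2.66, H4K8la 2.93 and H4K16la 3.63. In chr18:38507017-38508822 the distance was 66102 bp and in chr3:5755867-5756812 it was 63646 bp.

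**Figure D4:**
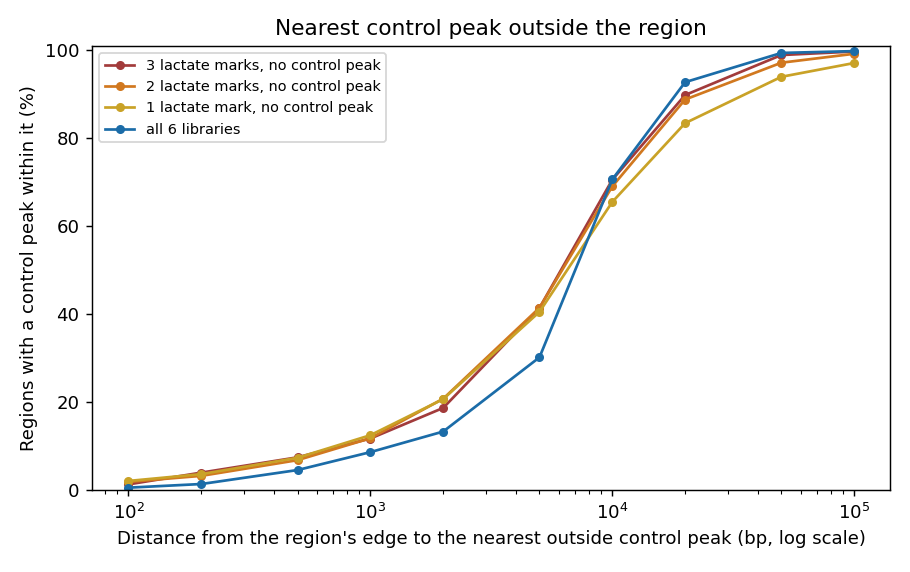
Share of regions (vertical axis, percent) whose nearest control peak outside the region lies within the distance on the horizontal axis (bp, log scale). The red line is the 374 regions, and the others are regions with 2 or 1 lactate marks and no control peak and regions called in all 6 libraries. The 3 sets without control peaks run together up to 5 kb, where they reach 41.4%, 41.5% and 40.6%, and the regions of all 6 libraries lie below them with 30.2%, but not at 10 kb, where they reach 70.7% and the 374 regions 70.6%.

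A control peak lay within 50 kb of 370 of the 374 regions. A window of 100 kb centred on a region held a median of 11 lactate peaks and 9 control peaks, its own included. By the rule, a region itself brings at least 3 lactate peaks and 0 control peaks into that window. Around regions with 2 lactate marks and no control peak the medians were 10 and 9. A region called in all 6 libraries lay within 10 kb of 19 of the 374, or 5.08% (3.09 to 7.82). The share was 5.69% for regions with 2 lactate marks and no control peak, 5.27% for those with 1, and 7.26% for the control-only regions, all inside that interval. With 3 lactate marks and 1 or 2 control marks it was 7.04% and 7.54%, also inside it. Regions called in all 6 libraries had another such region within 10 kb in 8.19% (7.57 to 8.84), above the interval of the 374. Local background had a median of 1.43 times the genome-wide one for H3K9la, 1.39 for H4K8la and 1.52 for H4K16la. It exceeded 3 times in 10, 8 and 7 regions. The lowest ratio was 1.00 for each mark, so a median above 1.00 is no sign of a rise by itself. Regions with 2 lactate marks and no control peak had medians of 1.40, 1.30 and 1.42. With 3 lactate marks the medians were 1.66, 1.55 and 1.59 beside 1 control mark, and 2.08, 2.21 and 1.84 beside 3. The highest mean of the 3 ratios was in chr6:100083909-100084618, at 6.26, 7.95 and 7.49 times, where a fold of 2.90, 2.33 and 2.83 went with summit pileups of 36, 30 and 62 fragments. In chr1:152850929-152851638 it was 4.99, 2.97 and 3.09 times, with pileups of 30, 16 and 32 fragments. No filter for artefact-prone stretches was applied, and the part of such coverage in these calls was not tested.

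The 374 regions were spread over all chromosomes. Neighbouring regions lay a median of 4.37 Mb apart, and 8 of 352 neighbouring pairs were within 100 kb. After the chromosome 3 pair the closest was on chromosome 8, where chr8:99210694-99211108 and chr8:99218542-99219131 were 7433 bp apart. Within 2 Mb of the first base or the last peak of a chromosome lay 14 regions, 3.74% (2.06 to 6.20), against 2.90% of all regions. Chromosome 1 held 45 regions, 12.03% of them, with 10.7% of all regions. Chromosome Y held 1.

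Apart from chromosome Y, with 1 of 3, the share of triple lactate regions without a control peak was highest on chromosomes X and 17, which were picked after the values were seen. As a share of all regions, the 374 made up 0.265% (0.141 to 0.453) on chromosome X and 0.342% (0.219 to 0.508) on chromosome 17, against 0.212% over the genome, which lies inside the first interval and just under the second. Chromosome X held 3.48% of the 374 and 2.78% of all regions, and chromosome 17 held 6.42% and 3.97%. Of regions with 1 lactate mark and no control peak, chromosome X held 3.65%, and of those called in all 6 libraries 0.894%. Triple regions on chromosome X were few (123 with lactate and 184 in control), so the shares taken over them there have wide intervals. The part of these low numbers in the high shares was not tested. Of the regions with all 3 lactate peaks on chromosome X, 13 of 123 had no control peak, or 10.6% (5.75 to 17.4), against 3.4% over the genome. The mirror share was also high there, with 19 of 184 triple control regions lacking any lactate peak, or 10.3% (6.33 to 15.7), against 5.9%. At a −log10 q of at least 3 the chromosome X shares were 10.3% (7 of 68) and 13.7% (14 of 102), beside 2.75% and 6.76% over the genome. On chromosome 17 the lactate share was 6.17% (3.99 to 9.04), from 24 of 389 regions, and the control share 4.95%. At a −log10 q of at least 3 the chromosome 17 lactate share was 3.29% (8 of 243), nearer to that of the genome. The lactate shares at this threshold rest on 7 regions on chromosome X and 8 on chromosome 17.

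**Figure D5:**
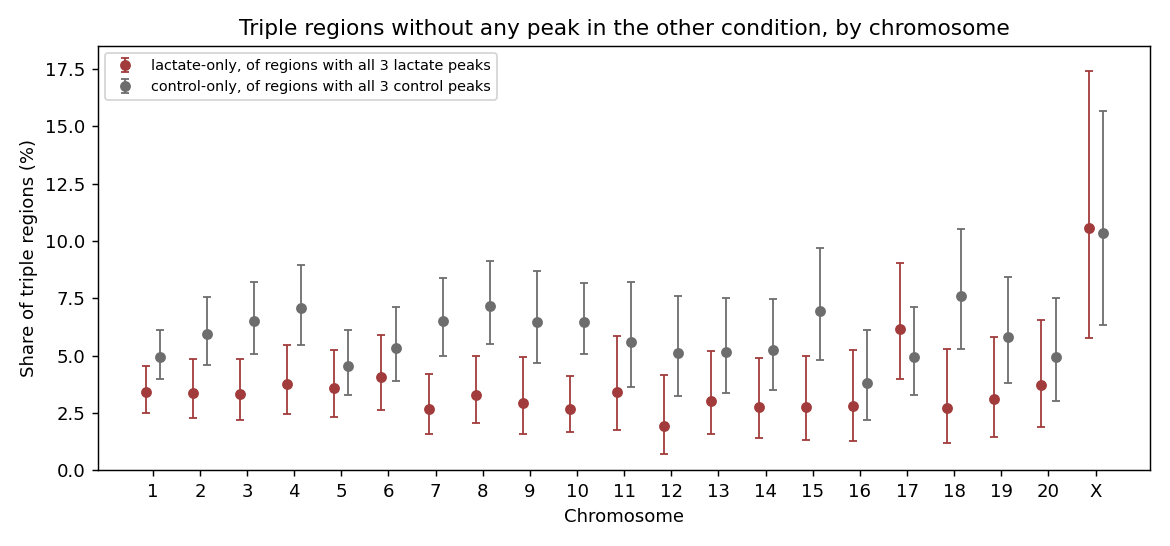
Share of triple regions that had no peak of any mark in the other condition, by chromosome, with exact binomial 95% intervals (counting error only). Red points on the left are lactate-only regions as a percent of regions with all 3 lactate peaks, and grey points are control-only regions as a percent of regions with all 3 control peaks. Both shares are above 10% on chromosome X, and chromosome Y is left out because it held 3 triple lactate regions.

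The 24 regions on chromosome 17 reached from chr17:6602338-6602853 to chr17:85765761-85766772, spread along the chromosome. The last of them was the strongest, with the H4K16la peak of 14.2 already described. In chr17:36239487-36240169 H4K16la reached 11.7, while H3K9la and H4K8la had 2.66 and 2.60. Of the 13 regions on chromosome X, the highest mean was 4.70, at chrX:98392754-98393898, where H3K9la had 4.56, H4K8la 4.67 and H4K16la 4.85. The chromosome Y region, chrY:9119056-9119814, had 1.80, 2.34 and 2.63.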

How the data were processed

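CUT&Tag peak lists of 6 libraries were used, grouped by sample title, which matches each treatment entry; a separate free-text field names 20 mM lactate for every sample and was not used for grouping. The submitters' processing notes name build rn7 and the tools MACS2, Bowtie2, cutadapt, deepTools and FastQC. Tool versions, settings and any use of the IgG control: not given in the sources used here. Peaks are listed per library. The authors' score is the whole part of 10 times −log10 q. The deposited fold is a ratio over local background, and the deposited −log10 p and −log10 q are the caller's statistics per peak.

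Where a mark had more than 1 peak in a region, the peak of highest −log10 q was used. Pileups were recovered as the whole number for which fold equals (pileup + 1) over (local background + 1) and p is its upper Poisson tail, within 0.002. This failed for 1 peak of H4K16la lactate and is inferred from the values. The most frequent background is the genome-wide one. Shares have exact Clopper-Pearson 95% intervals. The code was tested on simulated data. The regions named are the 12 of highest mean −log10 q, the 2 per mark where it most exceeds the others, and the 3 at each extreme of width, distance, background and mean, with those just outside the rule. The 8 regions at a threshold of 10, the first and last on chromosome 17, and others on chromosomes 8, 17, X and Y were chosen after their values were seen. Members and lists were chosen with earlier results of these data known. Genes were not analysed here. Python 3.11.15, numpy 2.4.6, pandas 2.3.3, scipy 1.17.1 and matplotlib 3.10.9 were used.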

Additional observations from a re-analysis of the deposited data

How the results depend on the processing

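The number of regions, 374, stayed within 1.5 times under 7 of 14 alternatives: equal list lengths (385), joining peaks within 200 or 1000 bp (391 and 436), a common base (329), no control peak within 1 kb (330), a −log10 p of at least 4 (364) and control depth (301). It moved to 196, 53 and 8 with all lists at −log10 q of at least 3, 5 and 10. It moved to 102 with that limit of 3 on lactate peaks alone, to 162 with all libraries scaled to the lowest background, to 219 with pairwise overlap of 50%, and to 219 without control peaks within 5 kb. A limit on overlap or on distance can only remove regions. The limit on lactate peaks alone was set before peaks were merged, so it can remove regions or split off new ones. The cause of the other moves was not tested. The ratio of lactate-only to control-only numbers (0.438) was 0.280, 0.115 and 0.0825 at the 3 thresholds, 0.560 at equal list lengths and 0.154 at matched background, below 1 in each. At a −log10 q of at least 3 the median width was 837.5 bp. The median fold there was 4.27 for H3K9la, 4.37 for H4K8la and 3.85 for H4K16la, and the median −log10 q 4.37, 4.18 and 4.79. The median summit distance there was 150 bp for H3K9la and H4K8la, 125 bp for H3K9la and H4K16la, and 129.5 bp for H4K8la and H4K16la. Leaving out weak peaks raises these strengths by construction. The unscaled −log10 p limit and the control-depth limit were added after seeing the data. With 1 library per group, leaving out a replicate could not be tried. No paired analysis was possible because each group has 1 library. The background of the H4K16la lactate library was 1.86 times that of its control, and the part of depth in the calls was not tested.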
